A study of Homo sapiens with 95 samples.

Results

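AALE cells, an immortalized line of human bronchial epithelial cells, were made to overexpress the receptor tyrosine kinase FGFR1 and were compared with AALE cells carrying the empty vector with the reporter HcRed, both in the DMSO vehicle. The 2 groups were chosen by their labels and comprised 6 wells, 3 of FGFR1 and 3 of HcRed, out of the 95 wells of 8 cell populations and 4 chemicals in the series. Gene expression was measured by 3′ digital gene expression (3′DGE), in which each captured RNA molecule carries a unique molecular identifier (UMI) and only the 3′ end of polyadenylated RNA is read. The labels name no inducing agent, no clone and no promoter of the vector, and every group here shared the line, the medium change and DMSO. A second control, used to check each gene, was 3 DMSO wells of AALE cells that received Cas9 with EGFP and no guide RNA (GFP). FGFR1 and HcRed wells treated with the tobacco nitrosamine NNK at 490 µM (3 of each) served as a set of wells that the vehicle comparison did not use. FGFR1, HcRed and GFP wells lay in different columns of the plate, each set of columns shared with 1 other population in another row (FGFR1 with FAT1, HcRed with NRF2, GFP with NRG1), so for these 3 groups population and plate column cannot be told apart. The study calls the wells of a group biological replicates without saying how far back their cultures were separate, and p-values refer to variation between these wells only. For FGFR1 against HcRed in vehicle they use a variance shared between genes rather than each gene's own spread between wells.

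FGFR1 is a cell surface receptor for fibroblast growth factors (FGFs). On ligand binding it dimerizes and phosphorylates the adaptor FRS2, from which the RAS-ERK and PI3K-AKT cascades are switched on. ERK activity in turn induces immediate early genes such as FOS and EGR1 and feedback inhibitors such as DUSP6 and the Sprouty proteins, and the gene is amplified in a share of squamous lung cancers. Bronchial basal cells can follow a squamous program, marked by small proline-rich (SPRR) proteins, S100 proteins and stratification keratins.

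Total UMI counts ran from 1168645 to 1359967 in HcRed wells, from 1207296 to 1443718 in FGFR1 wells and from 1191511 to 1364142 in GFP wells, and these totals limit what can be seen of low genes. Genes that mark airway basal epithelium were present in both groups, with KRT5 at 332 CPM (counts relative to the library total, scaled by trimmed mean of M values, TMM) in HcRed and TP63 at 25.2 CPM. Marker lists of other lineages, except the immune list, were low. All 5 neuroendocrine markers were at 0 in both groups, and the 5 endothelial, 5 ciliated and 5 alveolar markers each summed to at most 1.70 CPM in any HcRed or FGFR1 well. The 6 fibroblast markers summed to 1.43 to 5.10 CPM in HcRed wells and 2.18 to 8.40 CPM in FGFR1 wells, and the 6 immune markers to 12.8 to 21.3 and 17.5 to 23.3 CPM. FGFR1 replicate 3 stood apart from its group. The chi-square per degree of freedom between wells, near 1 for counting noise alone, was 1.17 between FGFR1 replicates 1 and 2 and 1.17 to 1.21 within HcRed, but 2.30 and 2.62 for the pairs with FGFR1 replicate 3, whose TMM factor was 1.11 against 0.959 to 1.03 in the other 5 wells. Results are therefore given with and without that well where it matters.

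FGFR1 itself was counted 2, 10 and 4 times in the HcRed wells and 32, 31 and 30 times in the FGFR1 wells. All 3 FGFR1 wells lay above all 3 HcRed wells, at 22.5 ± 0.091 CPM (SD, n = 3) against 3.99 ± 2.81 CPM, or 2.53 higher on the log2 scale (SE 0.41, adjusted p = 6.99e-07). GFP wells held 1, 5 and 3 counts, or 2.45 CPM, so the low level was not particular to HcRed. Without FGFR1 replicate 3 the log2 fold change was 2.51. Over the whole series, scaled to library totals only, the 12 FGFR1 wells ran from 12.1 to 25.4 CPM and the other 83 wells from 0 to 8.31 CPM, with no overlap. Counts at the 3′ end do not separate RNA of the vector from that of the cell's own gene, and the 3′ end of the vector's transcript was not given in the sources used here.

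**Figure D1:**
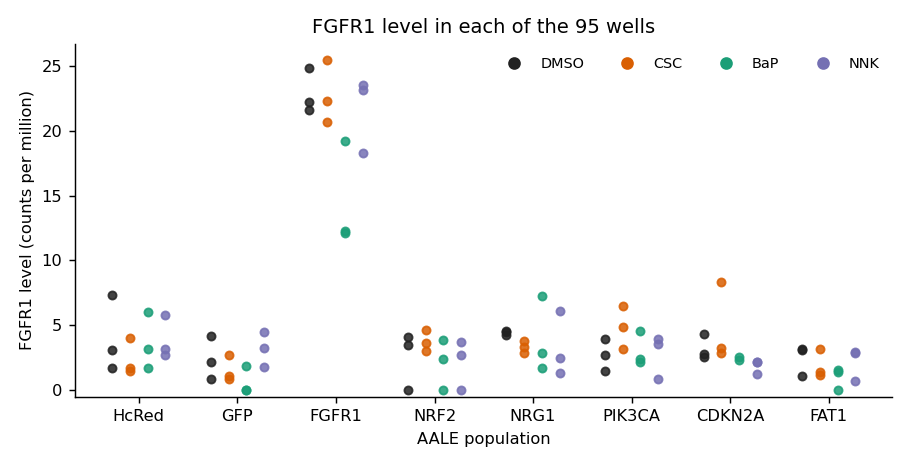
FGFR1 level in CPM of the library total (vertical axis) in each of the 95 wells, by AALE population (horizontal axis) and chemical (colour). The 12 FGFR1 wells sit between 12.1 and 25.4 CPM, above the 83 other wells, which reach 8.31 CPM.

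Genes with a mean count above 1 in the 6 wells numbered 11379. Of these, 104 (0.914%) passed an adjusted p of 0.05, with 57 higher (0.501%) and 47 lower (0.413%) in FGFR1 cells, and 1011 had an unadjusted p under 0.05. The 3 wells of one group lay wholly beyond the 3 of the other for 101 of the 104 genes, against 13.9% of all genes tested. The 104 were called on these same wells, so this separation largely follows from the selection. The median log2 fold change over all genes tested was 0.0083. Called genes were well counted: their median mean count was 56 against 11.3 over genes tested, and 85 of the 104 had a mean count over 20. Leaving out FGFR1 replicate 3 raised the number of calls to 329 (221 higher, 108 lower), and 92 of the 104 genes were among them, all 104 with the same direction.

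S100A8, an S100 calcium-binding protein of the calprotectin dimer, stood at 723, 673 and 658 CPM in HcRed wells and at 62.3, 61.9 and 45.6 CPM in FGFR1 wells. All FGFR1 wells were far below all HcRed wells, and the log2 fold change was -3.60 (SE 0.14, adjusted p = 2.53e-146). Its dimer partner S100A9 was at 23.8, 24.9 and 23.6 CPM in HcRed wells and 5.60, 8.74 and 3.74 CPM in FGFR1 wells (log2 fold change -2.01, SE 0.34, adjusted p = 1.91e-06). Of the 13 tested S100 genes 8 fell and none rose, with a median of -0.48 and only S100A13 above 0. S100A2, a p63 target of basal cells, was far more abundant and changed less, from 5310 ± 399 CPM to 3460 ± 290 CPM (n = 3 each; log2 fold change -0.61). S100A7 (psoriasin), S100A12, S100A6, S100A11 and S100A16 made up the rest, with log2 fold changes from -2.69 (S100A12) to -0.26 (S100A6). Without FGFR1 replicate 3, 10 S100 genes were called, 9 of them lower, while leaving out any other single well of the 6 cut the calls to between 3 and 5.

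Among squamous differentiation genes 6 of 25 tested members fell and 1 rose, with a median of -0.71, and leaving out any single well left 3 to 5 calls. SPRR1B, a cross-linked protein of the cornified envelope, was counted 29, 36 and 39 times in HcRed wells and 3, 0 and 2 times in FGFR1 wells. That is 27.0 ± 3.26 against 1.20 ± 1.08 CPM (log2 fold change -4.52, SE 0.68, adjusted p = 1.84e-08). SPRR3 was counted 27 times over the HcRed wells and once over the FGFR1 wells, a ratio of 29.0 with a 95% counting interval of 4.79 to 1190. SPRR1A went from 18 counts to 1, a ratio of 19.4 (3.06 to 807). KRTDAP, a keratinocyte differentiation-associated protein outside the list, was counted 78, 68 and 54 times in HcRed wells and 1, 0 and 0 times in FGFR1 wells, a ratio of 215 (38.2 to 8540). These 3 ratios have wide intervals because the lower group held a single count. CSTA (cystatin A, a cysteine protease inhibitor of the cornified envelope) fell from 655 ± 23.9 to 401 ± 36.0 CPM, and SCEL (sciellin, a precursor of that envelope, outside the list) fell from 44.9 ± 2.24 to 23.0 ± 0.927 CPM. The stratification keratins KRT6A and KRT16 fell by 1.09 and 1.67 on the log2 scale. KLK6, a kallikrein protease, was the member that rose, from 3.18 ± 1.06 to 11.1 ± 3.38 CPM. Members without a call included KRT10 at -0.03, DSG3 at -0.20 and SPRR2D at -2.07. KRT16 and SPRR1A lost the call without FGFR1 replicate 3 (adjusted p = 0.0728 and 0.135), and reads of KRT6A, KRT6B and KRT6C, or of SPRR genes, may be shared between near-identical copies.

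**Figure D2:**
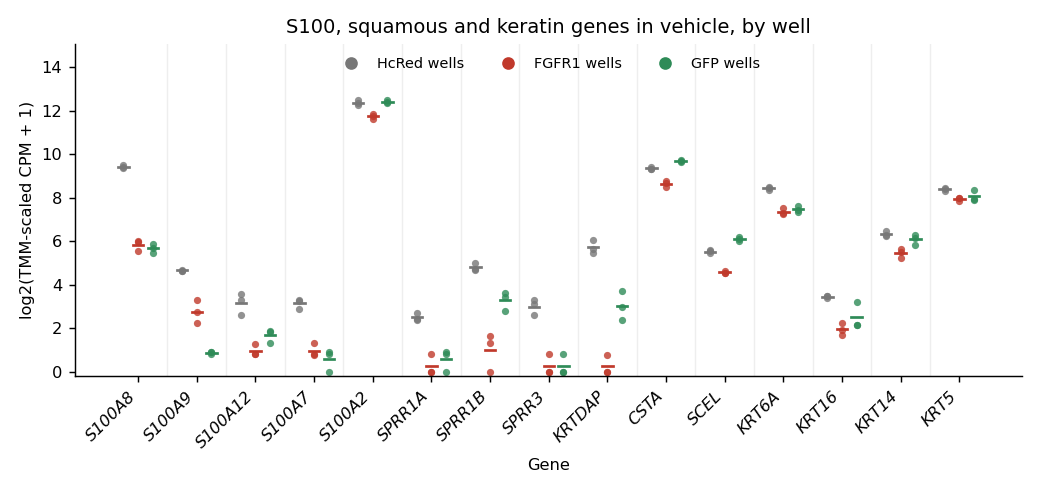
Level of S100, squamous and keratin genes as log2 of TMM-scaled CPM plus 1 (vertical axis), one column group per gene (horizontal axis), with 3 HcRed, 3 FGFR1 and 3 GFP wells as points and group means as bars. The FGFR1 wells lie below the HcRed wells for every gene shown, while the GFP wells lie near FGFR1 for S100A8 and near or above HcRed for S100A2, CSTA and SCEL.

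The genes that fell in this group are partly neighbours. The epidermal differentiation complex, a cluster of squamous genes on chromosome 1, was taken as hg19 (GRCh37) chr1:151955391-153604515, from S100A10 to S100A1. It held 19 tested genes, of which 11 (57.9%) were called, all 11 lower, and 17 of the 19 had a log2 fold change below 0 with a median of -0.48. The region was chosen after these values were seen and overlaps the S100 and squamous lists, so its count describes the same genes by position. SPRR1A, SPRR3, SPRR1B, S100A9, S100A12, S100A8 and S100A7 follow one another in this order with only SPRR2D, at -2.07 and not called, between them among tested genes.

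Promoters of the lower genes often held TGANTCA, a loose form of the site bound by AP-1. AP-1 is a dimer of JUN and FOS family proteins that acts downstream of ERK, and its usual site has C or G at N. TGANTCA also takes in TGAATCA, as in S100A12 and the second match of SPRR1B. The counts are therefore not of the usual AP-1 site alone. Within 250 bases upstream of any RefSeq start, on either strand, the letters occurred in 10 of the 31 lower genes with a promoter sequence (32.3%), in 1 of 43 higher genes (2.33%) and in 6.27% of the 8453 tested genes that had one. The match is a description of letters and not of binding. SPRR1A, SPRR1B, SPRR3, S100A2 and S100A12 among the 10 are neighbours in the epidermal differentiation complex described above, so the 10 are not separate cases. Upstream stretches of 60 bases are shown for 6 of the 10 genes to let the reader see the letters in S100, SPRR and laminin genes. The sequences are RefSeq promoters (GRCh38.p14) on the gene's strand, each found once in GRCh37 at the position given, with TGANTCA in capitals. S100A12, SPRR1A, SPRR1B and SPRR3 stretches lie outside annotated genes, and those of S100A2 and LAMB3 lie in introns of longer transcripts of the same genes.
SPRR1B, chr1:153003526-153003585, plus strand: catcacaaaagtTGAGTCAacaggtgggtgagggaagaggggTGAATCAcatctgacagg
SPRR1A, chr1:152956422-152956481, plus strand: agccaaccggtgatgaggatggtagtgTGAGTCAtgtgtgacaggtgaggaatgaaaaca
SPRR3, chr1:152974028-152974087, plus strand: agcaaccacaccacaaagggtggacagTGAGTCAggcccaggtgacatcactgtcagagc
S100A2, chr1:153538340-153538399, minus strand: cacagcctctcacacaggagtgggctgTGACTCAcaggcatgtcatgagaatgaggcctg
S100A12, chr1:153348122-153348181, minus strand: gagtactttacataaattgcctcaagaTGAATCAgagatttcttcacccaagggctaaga
LAMB3, chr1:209824754-209824813, minus strand: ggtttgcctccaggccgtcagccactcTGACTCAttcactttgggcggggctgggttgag

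Of 14 tested airway basal cell genes 4 fell and none rose (median -0.22), among them KRT14 and KRT5, the paired keratins of basal cells, and LAMB3, a laminin chain of the basement membrane. KRT14 was at 74.0, 88.4 and 77.2 CPM in HcRed wells and 48.3, 43.7 and 35.9 CPM in FGFR1 wells, which did not overlap (log2 fold change -0.91, SE 0.17, adjusted p = 2.88e-05). KRT5 fell by 0.44 on the log2 scale, from 332 ± 11.8 to 245 ± 10.8 CPM. KRT15, another basal keratin, was not called, at 4.64 CPM in HcRed (2.55 to 7.09) and 12.2 CPM in FGFR1 (8.23 to 17.5), groups that did not overlap (log2 fold change 1.35, adjusted p = 0.0783). Leaving out any 1 well other than FGFR1 replicate 3 cut the basal calls from 4 to 1 or 2, all lower, and without that replicate there were 8, of which 7 were lower and 1 higher. TP63, the master transcription factor of basal cells, had a log2 fold change of 0.08 (adjusted p = 0.968). In bulk wells fewer cells with a program and less RNA per cell cannot be told apart. Among 13 tested secretory and antimicrobial genes 2 fell and 1 rose. PI3 (elafin), an elastase inhibitor, was at 224, 191 and 158 CPM in HcRed wells and 23.1, 21.8 and 18.0 CPM in FGFR1 wells (log2 fold change -3.15, SE 0.19, adjusted p = 8.29e-57). SLPI, the secretory leukocyte protease inhibitor, fell from 523 ± 47.9 to 164 ± 22.7 CPM, with a log2 fold change of -1.67. WFDC2, of the same whey acidic protein family as both, went the other way, from 2.55, 6.41 and 10.2 CPM to 26.6, 19.7 and 23.2 CPM (log2 fold change 1.94, SE 0.35, adjusted p = 1.34e-05). IL18, an epithelial cytokine, was the 1 of 14 tested chemokine and cytokine genes that passed, at -0.67.

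Of 28 tested interferon-stimulated genes 8 rose in FGFR1 cells and none fell. The other 20 were not called, 26 of the 28 had a log2 fold change above 0, and the median was 0.88. IFIT2, an RNA-binding antiviral protein, was at 20.4, 21.4 and 21.3 CPM in HcRed wells and 49.0, 48.1 and 47.9 CPM in FGFR1 wells, tight in both groups and without overlap (log2 fold change 1.19, SE 0.21, adjusted p = 1.34e-05). Its paralogs IFIT3 and IFIT1 rose by 1.24 and 1.13 on the same scale. IFIT1 was uneven, at 39.9, 37.9 and 12.7 CPM in the FGFR1 wells, and replicate 3 lay within the range of the HcRed wells, which were at 12.8, 12.8 and 11 CPM. IFITM3, a membrane protein that hinders viral entry, was at 29.8, 42.0 and 45.7 CPM in HcRed wells and 68.6, 76.4 and 74.8 CPM in FGFR1 wells (log2 fold change 0.91, adjusted p = 7.31e-05). IFI44 rose from 12.2 ± 1.76 to 31.3 ± 6.29 CPM, and the ubiquitin-like ISG15 from 13.5 ± 4.65 to 27.5 ± 4.10 CPM. PSMB8 and PSMB9, catalytic subunits of the immunoproteasome, rose by 0.96 and 1.51 on the log2 scale. HLA-B and B2M, the chains of the MHC class I molecule, were the 2 higher genes of 11 tested antigen presentation genes, at 1.30 and 0.42. No HLA gene level is certain, since alleles and paralogs share sequence. Members without a call included OAS3 at 1.10 (adjusted p = 0.115), IFI27 at 0.45 (0.355), IRF1 at -0.39 (0.797) and IFI16 at 0.05 (0.974).

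Some further genes known to respond to interferon were picked from those called higher after their values were seen, so their direction was fixed by the choice. GBP1, a guanylate-binding GTPase, was counted 2, 3 and 4 times in HcRed wells and 17, 19 and 14 times in FGFR1 wells (log2 fold change 2.21, SE 0.51, adjusted p = 0.00311). UBE2L6, the ISG15-conjugating enzyme, was at 23.0, 22.8 and 36.3 CPM and 46.9, 44.4 and 44.9 CPM in these groups (log2 fold change 0.76). PSME1 and PSME2, the proteasome activator subunits, had log2 fold changes of 0.57 and 0.43, CASP1 of 0.73, IFI30 of 0.50 and LGALS3BP of 0.90. PNPT1, a mitochondrial nuclease that interferon can also induce, was called lower, at -0.76 (adjusted p = 0.0223). Without FGFR1 replicate 3, 9 of the listed interferon genes were called, all higher.

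**Figure D3:**
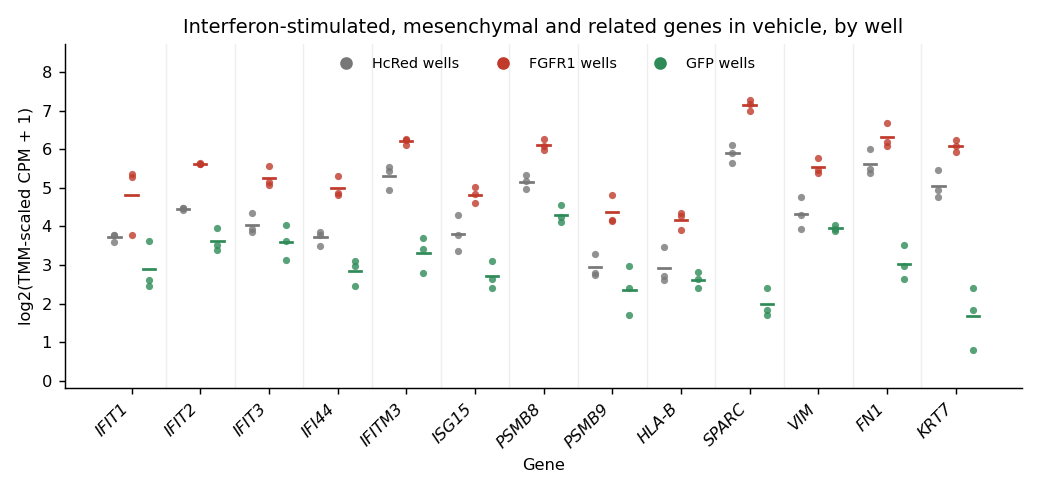
Level of interferon-stimulated genes, HLA-B, mesenchymal genes and KRT7 as log2 of TMM-scaled CPM plus 1 (vertical axis), by gene (horizontal axis), with 3 wells per group as points and group means as bars. FGFR1 wells lie above HcRed wells for every gene shown except IFIT1, where 1 FGFR1 well falls among them, and the GFP mean of each gene shown lies below its HcRed mean.

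The letters GAAANNGAAA, the core of the interferon-stimulated response element read by STAT and IRF factors, were in the 250 bases upstream of a RefSeq start in 9 of the 43 higher genes with a promoter (20.9%), in 0 of the 31 lower genes and in 3.36% of the 8453 tested genes. The 9 were B2M, GBP1, IFI44, IFIT1, IFIT3, IFITM3, ISG15, LGALS3BP and PSME2. All were named above as interferon-stimulated, interferon-responsive or antigen presentation genes, so the count describes those same genes by their promoters. IFIT1 and IFIT3 are paralogs that lie close together on chromosome 10, so the 9 are not separate cases. Neither this motif nor TGANTCA was part of the plan for the comparison and its lists. Stretches of 60 bases are shown for 6 of them, to show the letters counted, with GAAANNGAAA or its reverse complement in capitals. In B2M, GBP1 and PSME2 the corresponding stretch overlaps annotated exons and is not shown. IFIT1 and LGALS3BP stretches share 2 bases and 1 base with exons of longer transcripts, and both IFIT stretches also lie within the span of LIPA.
IFIT1, chr10:91152245-91152304, plus strand: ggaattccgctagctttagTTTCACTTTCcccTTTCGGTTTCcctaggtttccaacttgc
IFIT3, chr10:91087590-91087649, plus strand: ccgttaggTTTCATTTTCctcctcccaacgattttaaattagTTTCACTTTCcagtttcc
ISG15, chr1:948742-948801, plus strand: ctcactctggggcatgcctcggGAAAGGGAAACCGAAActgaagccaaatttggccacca
IFITM3, chr11:320870-320929, minus strand: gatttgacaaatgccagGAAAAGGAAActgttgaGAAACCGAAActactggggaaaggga
IFI44, chr1:79115414-79115473, plus strand: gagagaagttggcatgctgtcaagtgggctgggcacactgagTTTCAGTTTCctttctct
LGALS3BP, chr17:76976029-76976088, minus strand: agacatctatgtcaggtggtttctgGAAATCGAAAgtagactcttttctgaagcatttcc
These 6 stretches hold 1 or 2 copies each, and those of ISG15 overlap. A match does not show that a factor was bound, and no match says only that these letters are not in this window.

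Of 17 tested mesenchymal genes 3 rose and none fell, with a list median of 0.35. SPARC, a secreted matricellular protein, was at 58.7, 49.2 and 68.6 CPM in HcRed wells and 142, 153 and 126 CPM in FGFR1 wells (log2 fold change 1.27, SE 0.15, adjusted p = 7.07e-14). VIM, the mesenchymal intermediate filament vimentin, was at 18.7, 14.3 and 26.0 CPM against 43.4, 53.2 and 40.4 CPM (log2 fold change 1.24, SE 0.22, adjusted p = 9.52e-06). Neither gene's groups overlapped. FN1 (fibronectin) was the third that rose. Its log2 fold change was 0.68 (adjusted p = 0.00721), and without FGFR1 replicate 3 it was 0.49 and no longer called (adjusted p = 0.0616). The fibroblast marker sums given above moved in the same direction from near 0, and their part in these results was not tested. TWIST1 and ZEB1, transcription factors of epithelial-mesenchymal transition, had log2 fold changes of 0.27 and 0.99 without a call. LGALS1 (galectin-1) was at 383, 402 and 376 CPM and 621, 775 and 570 CPM, a log2 fold change of 0.75. MAP1B, a microtubule-associated protein, rose from 18.4 ± 6.39 to 51.7 ± 1.51 CPM. Epithelial genes did not fall as a list: of 22 junction and simple keratin genes 2 rose and none fell, with a median of 0.03. These were KRT7, at 29.8, 42.8 and 26.0 CPM and then 67.2, 60.4 and 74.1 CPM (log2 fold change 1.04), and the adhesion molecule EPCAM, whose groups overlapped and whose call was lost without FGFR1 replicate 3 (adjusted p = 0.212).

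The light and heavy chains of the iron store ferritin were among the higher genes with the smallest adjusted p. FTL was at 4520, 4250 and 4640 CPM in HcRed wells and 8180, 8640 and 6450 CPM in FGFR1 wells (log2 fold change 0.79, SE 0.07, adjusted p = 2.08e-26). FTH1 was at 459, 487 and 488 CPM and 719, 703 and 974 CPM (log2 fold change 0.72, SE 0.10, adjusted p = 1.30e-09). Both genes have many processed pseudogenes with near-identical sequence, so their levels are uncertain. They belong to a list of 24 tested NRF2 and ferritin genes, of which 3 rose and 1 fell, with a median of 0.13. SLC7A11, the cystine transporter, was the third (0.81, adjusted p = 0.0318, and 0.0665 without FGFR1 replicate 3). The member that fell, the aldehyde dehydrogenase ALDH3A1, was counted 15 times over the HcRed wells and not at all in FGFR1 wells, at least 5.38-fold lower with a floor of 3 counts over the group. Of 20 tested ATF4 and ER stress genes DDIT3 (CHOP) and the serine synthesis enzyme PSAT1 rose, by 1.09 and 0.50 on the log2 scale, and of 10 metallothioneins MT1F did, by 0.86. Others among the 10 higher genes with the smallest adjusted p were the carboxypeptidase CPVL, at 44.5 ± 6.49 and 110 ± 9.55 CPM, and the noncoding RNA ZFAS1, at 852 ± 33.9 and 1240 ± 123 CPM. RPL22L1, a paralog of a ribosomal protein, was among the 10 lower genes with the smallest adjusted p, at 588 ± 56.3 and 336 ± 9.74 CPM.

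Genes of the FGF pathway itself were largely without a call. Of 9 tested FGF receptors and co-receptors only FGFR1 passed, and FGFR2 and FGFR3 were at 3.16 and 6.24 CPM in HcRed cells with log2 fold changes of 0.27 (SE 0.53) and 0.01 (SE 0.42). Among ligands and binding proteins, FGF1 and FGF2 were counted 3 and 7 times over the HcRed wells and 7 and 9 times over the FGFR1 wells, and the FGF carrier FGFBP1 had a log2 fold change of -0.41 (adjusted p = 0.0602). None of 21 adaptor and RAS-ERK cascade genes and none of 26 PI3K, AKT and mTOR genes passed the limma test, nor did any by edgeR or DESeq2. At an unadjusted p under 0.05, 1 adaptor or cascade gene was lower and no PI3K gene was either way. None of 20 tested immediate early genes passed against HcRed in any of the 3 tools, and 1 was higher at an unadjusted p under 0.05. Against GFP the list differed, as given below. FOS had a log2 fold change of -0.32 (SE 0.59) and EGR1 of -0.12 (SE 0.33), at 3.11 and 11.3 CPM in HcRed cells. These errors are wide, and a change within them was not detectable at this depth.

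CCND1 (cyclin D1), an ERK output that drives entry into the cell cycle, was the 1 of 16 tested ERK feedback and output genes with a call, and it was lower. It was at 58.7, 42.8 and 39.4 CPM in HcRed wells and 16.8, 10.9 and 12.7 CPM in FGFR1 wells, with no overlap (log2 fold change -1.76, SE 0.24, adjusted p = 4.87e-10). CCND2, cyclin D2, moved the other way, from 18.7, 22.8 and 17.3 CPM to 35.7, 38.6 and 43.4 CPM (log2 fold change 0.98, SE 0.22, adjusted p = 0.00303), the 1 call among 37 tested cell cycle genes. The list of ERK feedback genes had a median of -0.34, and 3 of 16 members were above 0. DUSP6, the ERK phosphatase, was counted 3, 7 and 3 times and 5, 3 and 6 times, a log2 fold change of 0.01 (SE 0.55). ETV5, a transcription factor of the ERK response, was at 6.24 ± 2.01 and 1.72 ± 1.17 CPM, a log2 fold change of -1.80 that missed the threshold (adjusted p = 0.177).

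**Figure D4:**
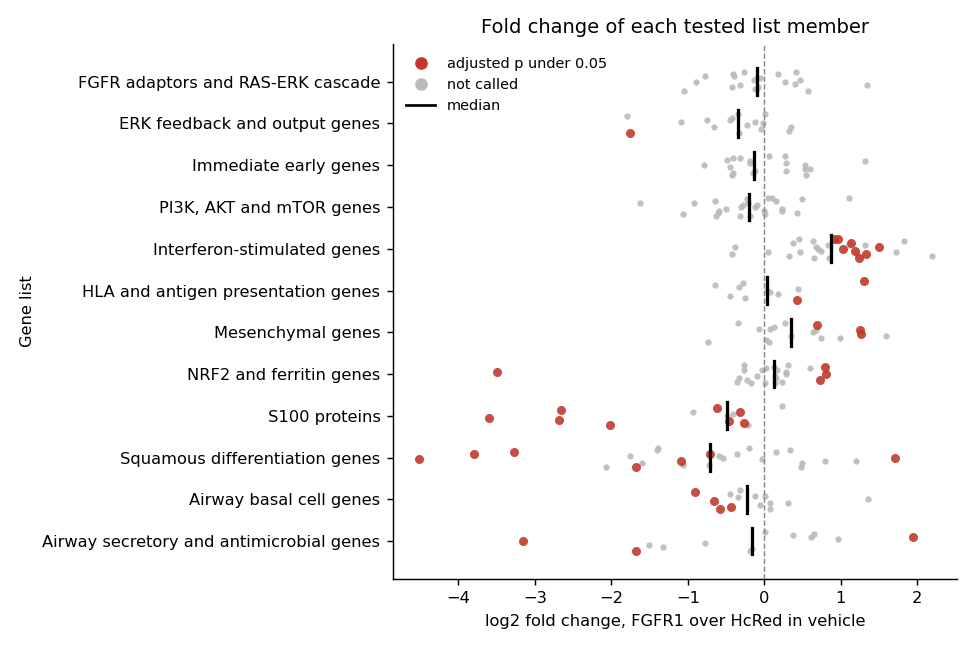
log2 fold change of FGFR1 over HcRed in vehicle (horizontal axis) for each tested member of 12 gene lists (vertical axis), with called genes in red, others in grey and list medians as black bars. The interferon list has a median of 0.88 with 8 higher genes, the S100 and squamous lists medians of -0.48 and -0.71 with 8 and 6 lower genes, and the ERK feedback list a median of -0.34 with CCND1 as its call.

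Each called gene was then looked up in the GFP wells, which share the vehicle but not the vector. By the midpoint of the HcRed and FGFR1 means of log2 CPM, GFP lay on the HcRed side for 67 of the 104 genes and on the FGFR1 side for 37, which were 13 of the 57 higher and 24 of the 47 lower genes. For those 37 genes GFP was nearer to FGFR1 than to HcRed. The side was counted for called genes only, so no share over all genes stands beside it. The wells that set the midpoint were also those used for the calls. S100A8 was one of them, at 50.0 ± 7.56 CPM in GFP, beside 56.6 CPM in FGFR1 and 685 CPM in HcRed. PI3 (15.9 CPM in GFP), SLPI (72.1 CPM), CCND1 (12 CPM), S100A9 (0.820 CPM), IL18 (114 CPM) and RPL22L1 (134 CPM) were likewise at or below the FGFR1 level in GFP cells. KRT6A, at 175 CPM in GFP and 163 CPM in FGFR1, lay just between. Among higher genes DDIT3 (80.8 CPM in GFP, 78.8 CPM in FGFR1), CPVL, B2M and SLC7A11 lay on the FGFR1 side.

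The direct comparison of FGFR1 with GFP called 986 of 11308 genes (8.72%; 516 higher, 4.56%, and 470 lower, 4.16%), and GFP against HcRed, both controls, called 1202 of 11134 (10.8%; 661 higher, 5.94%, and 541 lower, 4.86%), more than FGFR1 against HcRed did. The 3 comparisons share wells, so each gene's values are given side by side. Of the 101 genes tested against GFP 64 were called in the same direction, 42 higher and 22 lower, and 5 in the opposite one. Those 5 were SLPI, RPL22L1, S100A9 and S100A6, lower than in HcRed and higher than in GFP, and PSAT1, at 101 CPM in HcRed, 143 CPM in FGFR1 and 334 CPM in GFP. Called against both controls were S100A2 (5460 CPM in GFP, log2 fold change -0.66 against GFP), CSTA (822 CPM, -1.03), SCEL (67.6 CPM, -1.54), KRT14 (67.4 CPM, -0.65), LMO7, a LIM domain protein of cell junctions (47.6 CPM, -1.93), MFAP5 of elastic microfibrils (96.2 CPM, -2.01), the tubulin TUBB and the actin regulator PHACTR3, all lower. SPRR1B, at 8.96 CPM in GFP, was also lower against GFP (log2 fold change -2.93, adjusted p = 0.00139), as was KRTDAP. Higher against both were FGFR1, FTL (3890 CPM in GFP, log2 fold change 0.99 against GFP), FTH1 (416 CPM, 0.92), SPARC (3.04 CPM, 5.42), LGALS1 (162 CPM, 2.01), MAP1B (20.7 CPM, 1.32), VIM (14.4 CPM, 1.63), WFDC2 (5.99 CPM, 1.88), ZFAS1 and KRT7 (2.53 CPM, 4.80).

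The list counts below stand beside shares over all genes tested. Against GFP these were 4.56% higher and 4.16% lower, and in GFP against HcRed 5.94% higher and 4.86% lower. By list, 16 of 27 tested interferon genes were higher against GFP and none lower, among them all 8 called against HcRed. IFITM3 was at 9.24 CPM in GFP (log2 fold change 2.98 against GFP) and IFIT2 at 11.5 CPM (2.06). The controls themselves differed on this list: GFP against HcRed had 6 lower and 0 higher, with a median of -0.83. That difference was -2.07 for IFITM3 and -0.87 for IFIT2, so the larger values against GFP include it. The S100 list split, with 2 higher and 4 lower of 12 tested, and so did the squamous list, with 2 higher and 4 lower of 20. Basal genes were 4 lower and 0 higher of 14 (median -0.10), and secretory genes 5 higher and 0 lower of 12. Mesenchymal genes were 5 higher and 0 lower of 17, while GFP against HcRed had 4 lower and 0 higher (median -0.70). Immediate early genes, without a call against HcRed, were 4 higher and 0 lower of 21 against GFP (median 0.42). In GFP against HcRed 3 members of that list were lower and 0 higher, so its result depended on the control.

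Across the 8 populations in vehicle, scaled over the 24 DMSO wells, S100A8 was high in HcRed and NRF2 cells (666 ± 37.7 and 942 ± 39.2 CPM) and low in the rest, from 24.8 ± 5.50 CPM in FAT1 cells to 111 ± 15.5 CPM in CDKN2A cells, with FGFR1 cells at 54.5 ± 10.1 CPM. KRTDAP was likewise highest in HcRed and NRF2 cells, at 51.0 and 68.1 CPM respectively, 7.49 CPM in GFP cells and at most 1.92 CPM elsewhere. Neither low level was thus a property of FGFR1 cells alone. HcRed and NRF2 cells shared plate columns 1 to 3, and FGFR1 and FAT1 cells columns 7 to 9. Population and column thus cannot be told apart in the levels of S100A8, KRTDAP or the IFIT genes. SPARC was at 135 ± 14.7 CPM in FGFR1, 138 ± 12.9 CPM in NRF2 and 231 ± 12.6 CPM in PIK3CA cells. It was at 57.2 CPM in HcRed and at most 2.97 CPM in GFP, CDKN2A and FAT1 cells. VIM, KRT7 and LGALS1 were likewise higher in PIK3CA cells (69.8, 115 and 716 CPM) than in FGFR1 cells (43.9, 64.5 and 630 CPM). FTL (7440 and 7460 CPM) and CSTA (360 and 386 CPM) were close in these populations. FTH1, MAP1B and WFDC2 were higher in FGFR1 cells, at 765, 49.7 and 22.2 CPM against 562, 42 and 15.2 CPM in PIK3CA cells. A call against both controls thus did not mark a gene as particular to FGFR1 cells. IFIT2 was highest in FAT1 cells (116 ± 8.74 CPM), with FGFR1 cells next (46.4 ± 1.43 CPM) and NRG1 cells (28.8 ± 2.04 CPM) after them. IFIT3 and IFIT1 were also highest in FAT1 cells, at 64.5 and 53.9 CPM against 36.4 and 29.2 CPM in FGFR1 cells. IFITM3 was highest in PIK3CA cells (78 CPM, 70.4 CPM in FGFR1 cells). The means of ISG15 (26.4 CPM, 24.3 CPM in FAT1 cells) and PSMB9 (19.3 CPM, 12.1 CPM in PIK3CA cells) were highest in FGFR1 cells. CCND1 was at 11.4 to 13 CPM in FGFR1, GFP and FAT1 cells, at 20.6 CPM in NRF2 cells and at 41.0 to 48.6 CPM in HcRed, PIK3CA, CDKN2A and NRG1 cells. For 7 of the 104 genes all 3 FGFR1 wells lay beyond all 21 other DMSO wells, against 0.299% of genes tested: FGFR1, MAP1B, PSMB9, UBE2L6 and KLK6 above, and PNPT1 and MRPL21 (a mitochondrial ribosomal protein) below. The 104 were called with these FGFR1 wells and with HcRed wells that are among the 21. Part of this separation therefore follows from the selection, and these counts were made after the values were seen.

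The NNK wells gave a second measurement of FGFR1 against HcRed in wells that the vehicle comparison did not use, though of the same populations and plate columns. There 161 of 10575 genes were called (1.52%), 72 higher (0.681%) and 89 lower (0.842%). Of the 104 genes called in vehicle 103 had the same direction in NNK, against 59.1% of the 10386 genes tested in both, and the exception was HIST1H4C. In NNK 54 of them were called in the same direction, 30 higher and 24 lower, and none in the opposite one. The NNK wells did not overlap, in the vehicle direction, for 78 of the 104, against 10.7% of genes tested in both. FGFR1 had a log2 fold change of 2.42 in NNK, S100A8 of -3.45, PI3 of -3.18, SLPI of -1.71, FTL of 0.82, SPARC of 1.65, VIM of 1.60 and CCND1 of -1.53. In NNK 8 of 13 tested S100 genes and 6 of 24 squamous genes were lower with none higher, beside 0.842% lower over all genes. The interferon list had 6 higher of 27 with none lower (median 0.83), beside 0.681% higher over all genes. None of the 14 basal genes was called in NNK by limma, edgeR or DESeq2, and at an unadjusted p under 0.05 limma had 4 lower and 1 higher. KRT14 (-0.56), LMO7 (-0.67), SCEL (-0.58), PSMB9 (0.84) and HLA-B (0.07) were not called in NNK. A direct test of the difference between NNK and vehicle called 3 of 11147 genes (0.0269%), none of them a gene of the S100, squamous, interferon or mesenchymal lists.

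**Figure D5:**
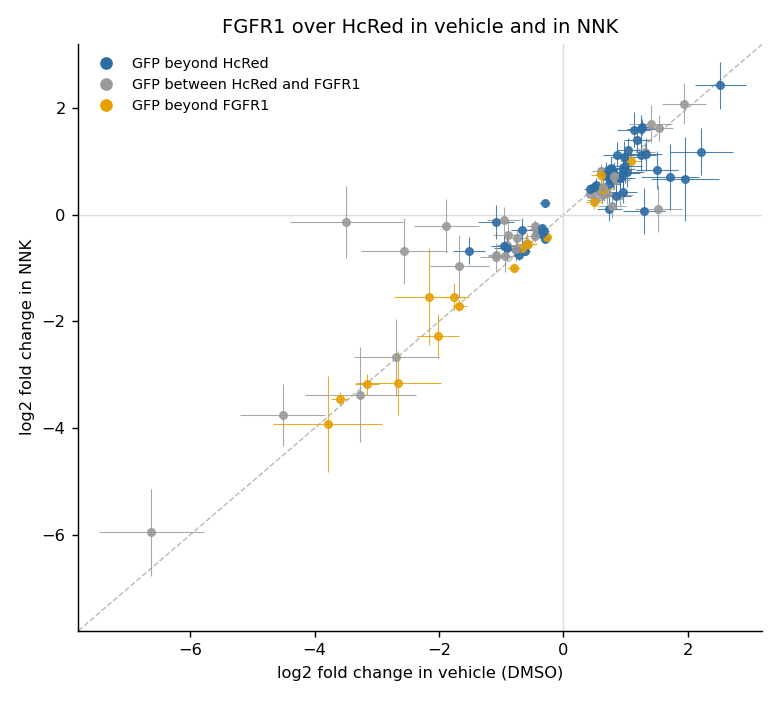
log2 fold change of FGFR1 over HcRed in NNK (vertical axis) against that in vehicle (horizontal axis) for the 104 genes called in vehicle, with standard errors as bars and colour for the place of the GFP mean. All but 1 of the 104 points lie in the lower left or upper right quadrant, and genes with GFP beyond FGFR1 (17 of 104) include several of the steepest falls.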

How the data were processed

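The deposited values were raw UMI counts of 23895 genes per well, which the authors received already quantified. According to the study's methods and the submitters' processing notes, reads were aligned with BWA 0.7.10 (seed length 24) to RefSeq transcripts of hg19, and each UMI added 1 count to its gene in a well, so copies of near-identical sequence and overlapping genes are uncertain. Groups came from the labels. Genes with a mean count above 1 were tested with limma 3.58.1 (voom weights, TMM factors from edgeR 4.0.16, R 4.3.3), two-sided, with Benjamini-Hochberg adjustment and a threshold of 0.05. The prior degrees of freedom were unbounded for FGFR1 against HcRed, beside 4 residual ones, so p-values rest on the variance shared between genes. Mean levels are TMM-scaled CPM over the 9 vehicle wells (NNK wells apart) with SD, and the GFP midpoint used log2 CPM with a prior count of 2. Intervals and floors cover counting error only. Scripts were tested on simulated data.

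Genes named by rule were FGFR1 and the 10 higher and 10 lower called genes with the smallest adjusted p and no overlap. The rule also took up to 10 each way also called against GFP, called list members, members of the FGF and ERK lists, and genes called in the interaction test. KRTDAP and SCEL fell under this rule and outside the lists. Outside the rule, basal markers and list members without a call were given beside the called ones. Genes such as GBP1, UBE2L6 and MRPL21 were picked after their values were seen. The comparison, lists and rule were chosen with earlier results of these data known. Alternatives included edgeR, DESeq2 1.42.0, other filters and scalings, and leaving out each well. Other wells entered only the descriptions over 95 or 24 wells. Among the named genes 1 particular gene is not reported here.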

Additional observations from a re-analysis of the deposited data

Results flagged for a closer look

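In a model of FGFR1 and HcRed in vehicle and NNK, 3 genes had an effect of FGFR1 that differed between the chemicals by the interaction test. The ribosomal protein gene RPS4X had a difference of 0.51 on the log2 scale (SE 0.08, adjusted p = 3.55e-05), with a log2 fold change of -0.14 in vehicle and 0.36 in NNK. The histone gene HIST1H4C differed by 0.55 (SE 0.10, adjusted p = 0.00213), from -0.30 in vehicle to 0.22 in NNK. RPLP1, another ribosomal protein gene, differed by 0.49 (SE 0.10, adjusted p = 0.0161), from 0.01 to 0.51. For RPLP1 the FGFR1 wells in NNK were uneven, at 7900, 12200 and 6100 TMM-scaled CPM, and for HIST1H4C replicate 3 was highest, at 3000 CPM against 1990 and 2080 CPM. edgeR called 1 of the 3, HIST1H4C (adjusted p = 0.0339), with 436 genes at an unadjusted p under 0.05, and DESeq2 called 0 genes, with 130 at an unadjusted p under 0.05. The limma count at that level was 491.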

How the results depend on the processing

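The number of genes called for FGFR1 against HcRed in vehicle, 104, moved to 46 with DESeq2 and to 1 with per-gene variances and no shrinkage, where FGFR1 kept its log2 fold change of 2.53 but not the call (adjusted p = 0.453). Leaving out each well in turn gave 50 to 329 genes and an FGFR1 log2 fold change of 2.13 to 3.04. By well left out, the counts were 53, 50 and 60 without HcRed replicates 1, 2 and 3, and 61, 79 and 329 without FGFR1 replicates 1, 2 and 3. The other 10 settings gave 80 to 144 genes, the upper value with sample quality weights, an alternative chosen after seeing the data, in which FGFR1 replicate 3 had a weight of 0.567 and the others 1.01 to 1.23. All of limma, edgeR and DESeq2 called 42 genes, 24 higher and 18 lower. DESeq2 called 521 genes for FGFR1 against GFP, 671 for GFP against HcRed, 85 for FGFR1 against HcRed in NNK and 0 for the interaction, where edgeR called 1. Leaving out wells gave 518 to 1071, 913 to 1020, 93 to 225 and 1 to 5 genes in these 4, and 33 to 37 genes with GFP on the FGFR1 side. S100 calls fell from 8 to 3 and squamous calls from 7 to 3 with DESeq2, while interferon calls fell from 8 to 5. Over 59 named genes 847 of 1051 values stayed on their side of the threshold, 204 lost the call and none reversed. The causes were not tested.

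Replicate numbers did not pair the wells: correlations of same-numbered wells were 0.0051, -0.089 and -0.12 over 6005 genes. With a replicate block 80 genes were called in vehicle, all 80 among the 104, and S100 calls went from 8 to 5 and basal calls from 4 to 1.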
